A study of Mus musculus with 9 samples.

Results

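Btg2, Plk2, Gadd45a, Gadd45b, Gadd45g, Trp53inp1 and Sesn1 are stress genes that p53 and other stress-activated factors can switch on. They were followed in a mouse hepatocyte line exposed to acetaminophen or to its regioisomer. The 7 genes were chosen by name, with earlier results of these data known, and from the same treatment differences that are given here, so their values are a description and no test is attached to them. Every probe set whose platform symbol was one of the 7 was taken, which gave 13 of 22626 probe sets. Of these, 9 had a mean over the arrays at or above 5.66 log2, the median of all probe sets. The other 4 were the dimmest Gadd45b probe set and all 3 of Sesn1.

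The cells were TAMH, a line of mouse hepatocytes from animals transgenic for TGF-alpha, labelled as liver of strain C57BL/6. Control cells had culture medium alone, and treated cells had APAP (acetaminophen) or AMAP, each at 2 mM, for 2, 6 or 24 h. Each treatment used 2 dishes, and 1 array was run per treatment and time, 9 in all. The compounds differ in the place of the ring hydroxyl group, para in APAP and meta in AMAP, and the study's title names AMAP as the less hepatotoxic. Values are log2 units after RMA, the authors' normalization. A difference of 1 is 2-fold, and with 1 array in each group no difference at a single time has a replicate check.

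Damage to DNA and other stress stabilise p53, a transcription factor that then raises genes that stop the cell cycle, repair DNA or start death. Btg2 encodes an antiproliferative protein that binds the CCR4-NOT deadenylase. Plk2 is a Polo-like kinase, and the Gadd45 proteins are small partners of stress kinases and cell-cycle proteins. Trp53inp1 encodes a nuclear protein that promotes p53 activity and takes part in autophagy, and Sesn1 is a sestrin, a class of proteins that restrains mTORC1. Several of these genes are also immediate-early genes, which other factors can induce soon after a stimulus.

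The RefSeq promoter table (GRCm38.p6) held 6 of the 7 genes in 7 entries, 2 of them for Sesn1, each of 250 bases before to 50 bases after the start of the gene. The p53 half-site by its usual consensus, TGANTCA (the AP-1 site), TGACGTCA (the full cAMP response element, bound by CREB and ATF factors) and TGACG (which lies within the full element) were searched on both strands. The full element was found in Btg2 and Plk2, against 1.79% of 32851 promoters. A p53 half-site was found in Gadd45a and in 1 entry of Sesn1, against 8.36%. TGACG was found in Btg2, Plk2 and the same Sesn1 entry, against 20.8%, and TGANTCA in none of the 7 entries, against 7.81%. A match is a description of letters and not a binding site. The windows shown are those of the genes that held a match and were 2-fold above control in AMAP at 2 h, on the gene's own strand with the match in capitals.
Btg2, chr1:134079274-134079361, minus strand, match 166 to 159 bases before the start: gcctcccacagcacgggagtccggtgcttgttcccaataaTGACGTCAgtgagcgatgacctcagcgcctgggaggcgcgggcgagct
Plk2, chr13:110394942-110395029, plus strand, match 62 to 55 bases before the start: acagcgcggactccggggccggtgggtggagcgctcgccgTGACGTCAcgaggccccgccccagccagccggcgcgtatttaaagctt
Gadd45a, chr6:67037408-67037487, minus strand, match 40 to 31 bases before the start: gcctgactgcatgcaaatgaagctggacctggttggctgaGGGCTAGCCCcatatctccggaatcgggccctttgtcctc

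The 6 h APAP array and both treated arrays of 24 h stood apart. For the bacterial dap control RNA, the middle probe set minus the 3′ probe set was -1.72 log2 on the first, -1.58 on APAP at 24 h and -1.94 on AMAP at 24 h, against -0.60 to -0.44 on the other 6 arrays. Every 24 h comparison and each 6 h comparison with APAP uses at least 1 of them, and the part of this in the results was not tested. The 2 h arrays are not among them. All 9 hepatocyte markers measured, among them Alb and Hnf4a, had means above the median of all values, as did 4 of 5 cholangiocyte markers and 1 of 8 markers of stellate cells and fibroblasts (Dcn). None of the 6 macrophage and none of the 6 endothelial markers did.

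Across the 9 arrays the bright members shared a shape in AMAP, with high values at 2 h, values near or below control at 6 h, and high values again at 24 h for Btg2, Plk2, Gadd45b and Gadd45g. In APAP the 2 h values of Btg2, Gadd45a and Trp53inp1 were below control and those of Plk2, Gadd45b and Gadd45g above it, and Btg2, Plk2, Gadd45g, Trp53inp1 and all 3 Gadd45b probe sets were highest at 24 h. Sesn1 did not share either shape.

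**Figure D1:**
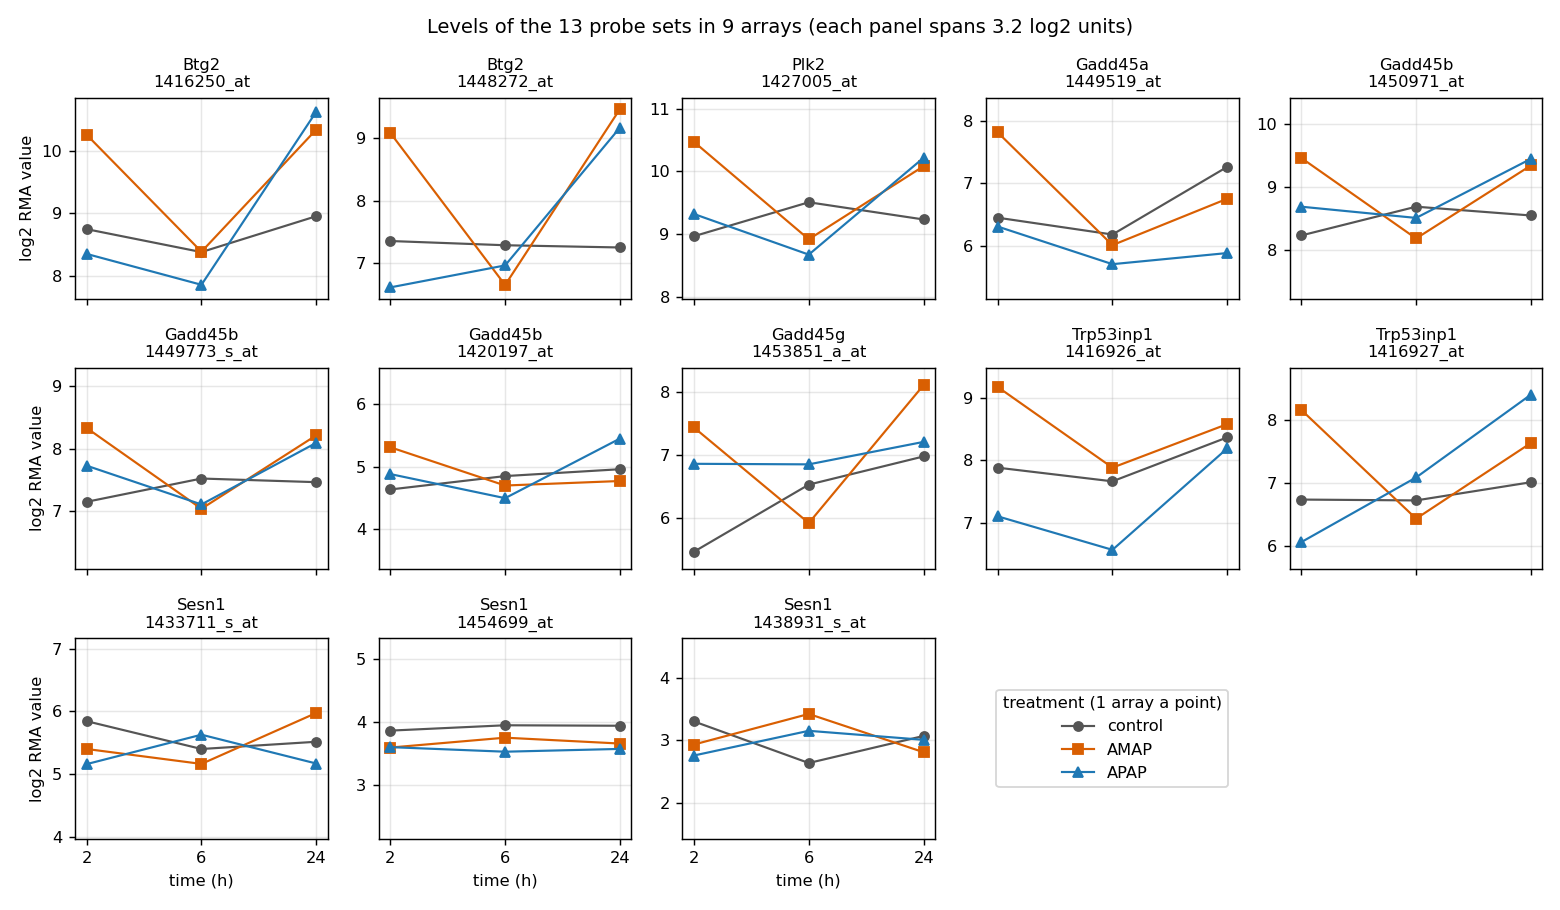
Log2 RMA values (vertical axis, each panel spanning 3.2 units) of the 13 probe sets at 2, 6 and 24 h (horizontal axis, evenly spaced) in control medium, AMAP and APAP, 1 array a point. Btg2 1416250_at reads 10.26 in AMAP at 2 h, 8.39 at 6 h and 10.34 at 24 h, and in APAP 8.35, 7.86 and 10.62.

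Btg2 had the widest range of the members. Its brighter probe set, 1416250_at, read 8.75, 8.38 and 8.96 in control medium at 2, 6 and 24 h. In AMAP it read 10.26, 8.39 and 10.34, and in APAP 8.35, 7.86 and 10.62. The 3 control values thus lay within 0.57 log2, while AMAP at 2 h and both compounds at 24 h lay above all of them. AMAP was 2.84-fold above control at 2 h, a difference of 1.51 log2, and 2.61-fold above it at 24 h, a difference of 1.38. APAP differed from control by -0.40 at 2 h, -0.52 at 6 h and 1.67 at 24 h.

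The second Btg2 probe set, 1448272_at, had the same directions against control at 2 and 24 h. Control values were 7.36, 7.29 and 7.26, a range of 0.10 log2, and each of the 6 differences from control was larger than that. AMAP read 9.08, 6.66 and 9.46 and APAP 6.62, 6.97 and 9.17. At 2 h AMAP differed from control by 1.73 and APAP by -0.74, so that APAP stood 5.53-fold below AMAP, a difference of -2.47. At 24 h both stood above control, by 2.21 in AMAP and 1.91 in APAP. The 2 probe sets went in opposite directions in AMAP against control at 6 h (0.01 on 1416250_at and -0.63 on 1448272_at) and between the compounds at 6 h (-0.53 and 0.31) and 24 h (0.29 and -0.30). The AMAP difference of 1448272_at at 24 h ranked 2 from the highest of the 11834 probe sets that reached that median of 5.66 on either array.

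Plk2 has 1 probe set, 1427005_at, and was the brightest member with a mean of 9.49. It read 8.97, 9.51 and 9.23 in control medium, 10.47, 8.92 and 10.09 in AMAP, and 9.32, 8.67 and 10.22 in APAP. The 2 h AMAP value was the highest of the 9 and the 6 h APAP value the lowest. AMAP was 2.84-fold above control at 2 h, by 1.51 log2, and APAP was above it by 0.35. At 6 h both compounds read below control, by -0.59 in AMAP and -0.84 in APAP, and at 24 h both above it, by 0.85 and 0.98. The largest difference between control arrays was 0.54, which 5 of the 6 differences from control exceeded.

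The 3 Gadd45 genes encode related proteins, and they parted at 24 h. Gadd45a, 1449519_at, read 6.45, 6.18 and 7.26 in control medium, 7.81, 6.01 and 6.75 in AMAP, and 6.31, 5.71 and 5.89 in APAP. It was higher than control in AMAP at 2 h, by 1.36 log2 or 2.57-fold, and lower than control with both compounds at 24 h, by -0.51 in AMAP and -1.38 in APAP. The control itself read 1.08 higher at 24 h than at 6 h. APAP was below AMAP at all 3 times, with differences of -1.50, -0.30 and -0.87.

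Gadd45b has 3 probe sets. The brightest, 1450971_at, read 8.23, 8.69 and 8.55 in control medium, 9.47, 8.18 and 9.35 in AMAP, and 8.69, 8.51 and 9.45 in APAP. AMAP was above control by 1.24 log2 at 2 h and by 0.80 at 24 h, and APAP by 0.46 and 0.90. The probe set 1449773_s_at gave 1.18 and 0.75 for AMAP and 0.58 and 0.63 for APAP. The dim probe set 1420197_at, with a mean of 4.90, gave 0.67 for AMAP at 2 h and -0.19 at 24 h. At 6 h all 3 probe sets were below control with either compound, by -0.51 to -0.15 in AMAP and -0.41 to -0.18 in APAP.

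Gadd45g, 1453851_a_at, had the largest AMAP difference of the members at 2 h and also the least steady control. Control values were 5.46, 6.53 and 6.98, so that the untreated arrays alone were up to 1.52 log2 apart. AMAP read 7.44, 5.92 and 8.12 and APAP 6.86, 6.85 and 7.21. At 2 h AMAP was 3.95-fold and APAP 2.65-fold above control, by 1.98 and 1.40 log2, and the control value of 5.46 lay below the median of all values. Only the AMAP difference at 2 h exceeded the range between control arrays. At 24 h AMAP was above control by 1.14 and APAP by 0.23.

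Trp53inp1, like Btg2, had the compounds on opposite sides of control at 2 h. The brighter probe set, 1416926_at, read 7.88, 7.67 and 8.37 in control medium, 9.17, 7.88 and 8.58 in AMAP, and 7.11, 6.57 and 8.19 in APAP. The other, 1416927_at, read 6.74, 6.72 and 7.01 in control medium, 8.17, 6.43 and 7.64 in AMAP, and 6.06, 7.09 and 8.41 in APAP. At 2 h both had AMAP above control, by 1.29 and 1.43 log2, and APAP below it, by -0.78 and -0.68. The compounds were then 4.18-fold and 4.32-fold apart.

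Later the 2 probe sets of Trp53inp1 did not go together in APAP. At 6 h APAP differed from control by -1.09 on 1416926_at and by 0.37 on 1416927_at. At 24 h the differences were -0.18 and 1.40. APAP against AMAP was -1.31 and 0.66 at 6 h and -0.39 and 0.77 at 24 h, so that the direction between the compounds at these times depends on the probe set. Which transcripts each probe set reads was not tested, and the APAP arrays at these times are among those with the low dap probe set.

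Sesn1 was dim on every probe set. The brightest, 1433711_s_at, had a mean of 5.47 and lay between 5.16 and 5.97 on the 9 arrays. It read 5.84, 5.40 and 5.51 in control medium, 5.40, 5.16 and 5.97 in AMAP, and 5.16, 5.63 and 5.17 in APAP. No difference from control reached 0.70 log2, the largest being -0.69 for APAP at 2 h. The probe set 1454699_at, with a mean of 3.72, was below control in all 6 comparisons, by -0.42 to -0.20, and 1438931_s_at, with a mean of 3.01, differed by -0.54 to 0.78.

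Set beside all probe sets, the members stood out most in AMAP at 2 h. A probe set was counted as 2-fold apart where the difference was at least 1 log2 and the brighter of the arrays compared reached 5.66. In AMAP against control at 2 h, 9 of 13 were 2-fold apart, all 9 higher, against 0.893% of all probe sets. The 4 others were the 3 of Sesn1 and the dim one of Gadd45b. At 6 h none of 13 was, against 1.45%, and at 24 h 3 were, both of Btg2 and that of Gadd45g, all higher, against 2.91%. These counts rest on the differences from which the genes were chosen and support nothing further.

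In APAP against control, 1 of 13 was 2-fold apart at 2 h (Gadd45g, higher), against 1.01% of all probe sets. At 6 h 1 was (Trp53inp1 1416926_at, lower), against 4.45%. At 24 h 4 were, against 4.84%: both of Btg2 and Trp53inp1 1416927_at higher, and Gadd45a lower. Over the 13 probe sets the median difference was -0.26 at 2 h, -0.35 at 6 h and 0.49 at 24 h, beside 0.00, 0.08 and 0.14 for all probe sets. For AMAP the medians were 1.29, -0.24 and 0.63, beside 0.00, -0.09 and 0.13.

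The regioisomers were compared at the same dose at 3 times, and they differed in these genes chiefly at 2 h. The genes were chosen with these differences known. At 2 h 12 of 13 probe sets were lower in APAP than in AMAP, where 49.2% of all probe sets were higher. Of the 13, 6 were 2-fold apart, all lower, against 0.8% of all probe sets. They were both of Btg2 (-1.90 and -2.47), both of Trp53inp1 (-2.06 and -2.11), Gadd45a (-1.50) and Plk2 (-1.15). Gadd45g, at -0.58, and the 3 Gadd45b probe sets, at -0.78 to -0.43, were closer together. At 6 h 1 of 13 was 2-fold apart, against 8.24%, and at 24 h none was, against 1.98%. The median difference went from -0.78 at 2 h to -0.20 at 6 h and -0.09 at 24 h, beside 0.00, 0.20 and 0.00 for all probe sets. The 6 h median of all probe sets was -0.01 after cyclic loess scaling. Whether the compounds act alike on these genes at 24 h cannot be read from 1 array each, since no interval can be given. Gadd45g and Gadd45a then differed by -0.91 and -0.87, lower in APAP.

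**Figure D2:**
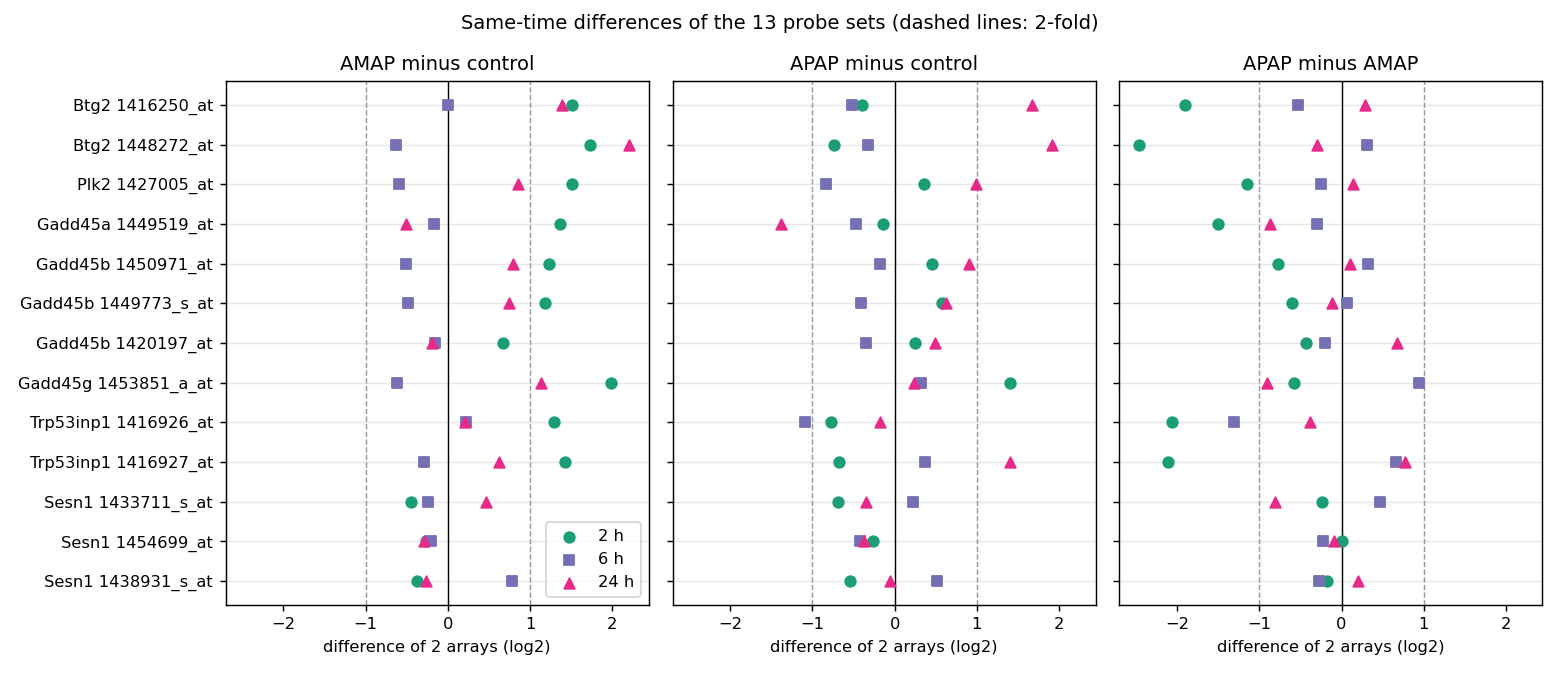
Difference of 2 arrays in log2 units (horizontal axis) for each of the 13 probe sets (vertical axis) in AMAP minus control, APAP minus control and APAP minus AMAP, with 1 point for each time and dashed lines at 2-fold. In the first panel the 2 h points of 9 probe sets lie beyond 1, and in the third the 2 h points of 6 lie below -1.

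Several probe sets of a gene give a check within an array, though not between arrays. The 4 members with more than 1 probe set make 12 comparisons at each time. At 2 h all probe sets of the gene had the same direction in 11 of 12, and their median spread was 0.29 log2. At 6 h this held in 3 of 12 with a spread of 0.69, and at 24 h in 5 of 12 with a spread of 0.77. At 6 h the disagreements included Btg2, Gadd45b and Trp53inp1 as well as Sesn1, and the spread of Trp53inp1 reached 1.97 log2.

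Followed over time, the high AMAP values had gone by 6 h. From 2 to 6 h in AMAP, Btg2 differed by -1.87 and -2.43 on its 2 probe sets, Gadd45a by -1.80, Plk2 by -1.55, Gadd45g by -1.52, and Trp53inp1 by -1.29 and -1.74. From 6 to 24 h Btg2 differed by 1.95 and 2.81, Gadd45g by 2.20, Plk2 by 1.17 and Gadd45b 1450971_at by 1.17. In APAP the difference from 2 to 24 h was 2.27 and 2.55 for Btg2. Among control arrays only Gadd45g (1.07 from 2 to 6 h and 1.52 from 2 to 24 h) and Gadd45a (1.08 from 6 to 24 h) were 2-fold apart.

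The genes whose profiles lay nearest to those of 4 members were found by the mean absolute difference over the 9 arrays, after each profile was set to its own mean, among 6706 other expressed genes with 1 probe set each. Nearest to Plk2 were its fellow member Gadd45b, at 0.14 log2, Mdm2, the ubiquitin ligase that limits p53, at 0.19, and the noncoding RNA host gene Snhg1 at 0.21. Nearest to Btg2 were Ppp1r15a, which directs dephosphorylation of eIF2α, at 0.29, Txnip, which binds thioredoxin, at 0.29, and the AP-1 member Jun at 0.31. Btg2 and Plk2 were 0.42 apart, which placed Plk2 at rank 9 of the genes nearest to Btg2, but Btg2 only at rank 647 from Plk2.

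Gadd45a and Trp53inp1 had other neighbours. Nearest to Gadd45a were Pnrc1 at 0.25, Cth, an enzyme of cysteine synthesis, at 0.30 and Taf1d at 0.31. Nearest to Trp53inp1 were C9orf72 at 0.23, Plagl1, a zinc-finger transcription factor, at 0.26 and Nabp1, a protein that binds single-stranded DNA, at 0.26. The profile used for Trp53inp1 is that of its brighter probe set, whose lowest value is APAP at 6 h. Gadd45a and Gadd45b were 0.52 apart, farther than Gadd45b was from Plk2, and Gadd45b was at rank 1536 from Gadd45a.

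**Figure D3:**
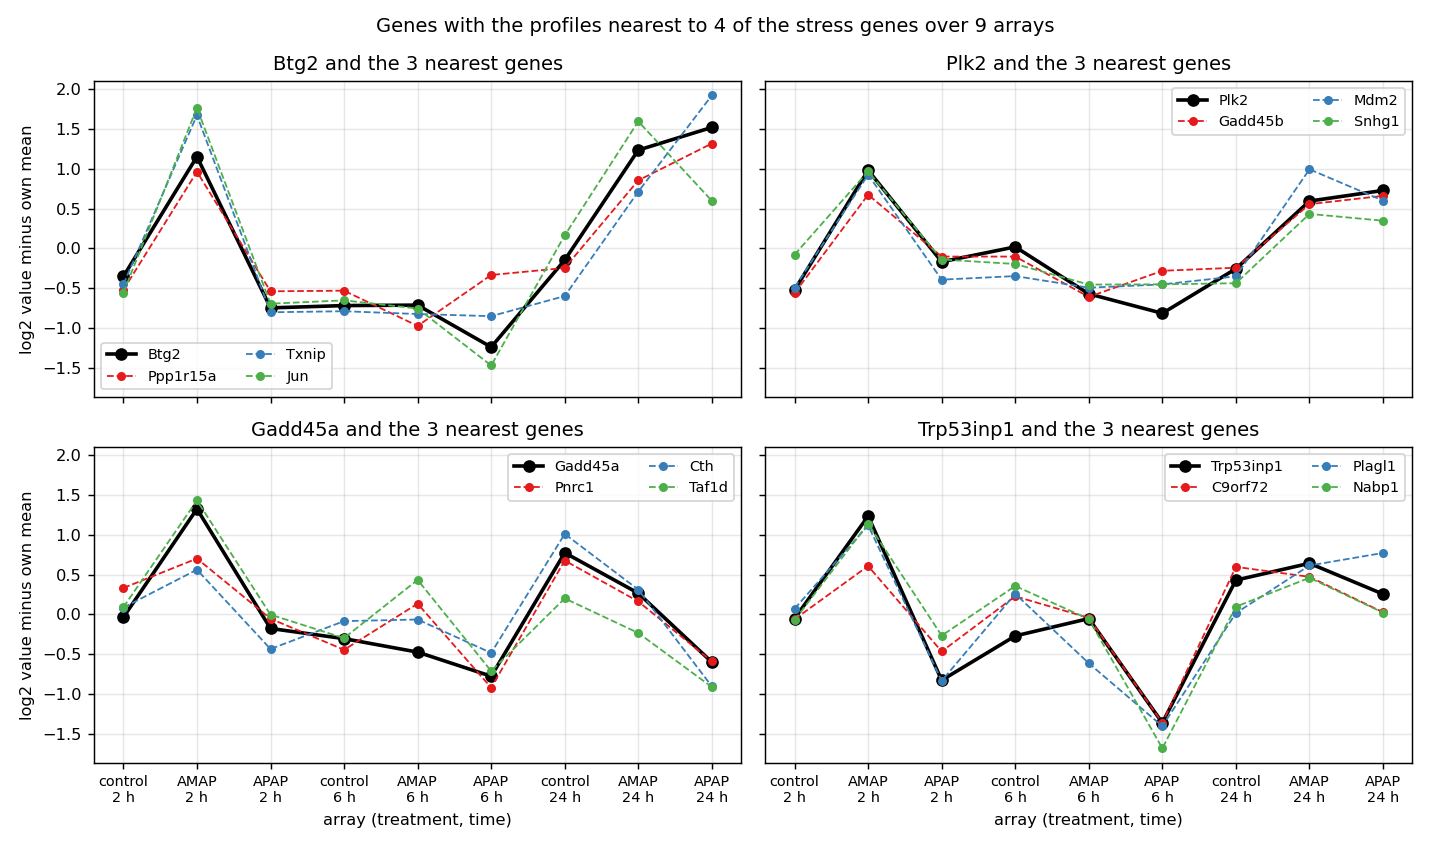
Log2 value minus the gene's own mean (vertical axis) on each of the 9 arrays (horizontal axis, ordered by time) for Btg2, Plk2, Gadd45a and Trp53inp1 in black and the 3 nearest genes of each in colour. The Plk2 panel shows Gadd45b and Mdm2 close to it, at mean absolute differences of 0.14 and 0.19 log2.

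Other p53 targets, listed by name without the 7 members, moved in part with them. Of 47 genes listed, 43 were measured and 40 were expressed. Whether each listed gene answers to p53, in these cells or in others, was not tested. In AMAP at 2 h, 28 of 40 were higher than control and 12 lower, with a median of 0.49 log2, beside 45.1% of all expressed genes higher and a median of -0.01. In APAP 22 were higher and 16 lower, where 45.3% of all expressed genes were higher, with a median of 0.09 beside -0.01. Between the compounds 35 of 40 were lower in APAP, where 46.6% of all expressed genes were higher, with a median of -0.40 beside 0.00. Of the 43 measured, 8 were 2-fold apart in AMAP against control, 4 in APAP against control and 5 between the compounds, where all genes gave 0.992%, 1.13% and 0.968%.

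Among these targets at 2 h in AMAP, the highest were Lif, a cytokine (2.25), Cdkn1a, the inhibitor of cyclin-dependent kinases (1.68), and Mdm2 (1.42), and the lowest Tgfa (-0.61), the growth factor that the transgene of this line also encodes, Trp53inp2 (-0.56) and Bid (-0.52). Trp53inp2, the relative of Trp53inp1, thus differed in the other direction. In APAP the highest were Thbs1 (1.78), Epha2 (1.01) and Lif (0.93), and the lowest the cyclin G family member Ccng2 (-1.76), Trp53inp2 (-1.46) and the sestrin Sesn3 (-0.90). Between the compounds the lowest in APAP were Ccng2 (-1.62), Ddit4, an inhibitor of mTORC1 (-1.52), and Mdm2 (-1.32), and the highest Bid (0.64), Thbs1 (0.63) and Pml (0.21).

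At 24 h the members and the other targets differed between the compounds. Of the 40 other targets, 29 were higher in APAP than in AMAP, with a median of 0.48 beside 0.02 for all expressed genes. Of the 13 member probe sets 6 were higher and 7 lower, with a median of -0.09. The difference between the 2 sets of genes was not tested. Their units are also unlike, with 1 expressed probe set a gene for the targets and every probe set, dim ones included, for the members. Against control, 30 of 40 were higher in APAP, where 60.4% of all expressed genes were (median 0.69 beside 0.12). In AMAP 29 of 40 were, where 59.7% of all expressed genes were (0.22 beside 0.10). The numbers 2-fold apart were 16, 7 and 3 of 43 for APAP against control, AMAP against control and APAP against AMAP, where all genes gave 4.08%, 1.89% and 1.88%. Cdkn1a was above control by 1.42 in APAP and 0.94 in AMAP. Mdm2 was above control by 0.95 in APAP and 1.35 in AMAP, and was among the 11 targets lower in APAP than in AMAP.

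At 6 h the other targets had medians of -0.08 in AMAP and 0.04 in APAP against control, and 0.13 between the compounds, beside -0.10, -0.05 and 0.07 for all expressed genes. The numbers 2-fold apart were 1, 4 and 4 of 43, where all genes gave 0.726%, 3.88% and 6.75%. The single gene in AMAP was Pmaip1, which encodes Noxa (1.83). Its control was not steady, reading 8.95, 7.09 and 9.23 at 2, 6 and 24 h, while AMAP read 9.95, 8.93 and 8.16. At 24 h Pmaip1 was below control, by -1.07 in AMAP and -1.03 in APAP.

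**Figure D4:**
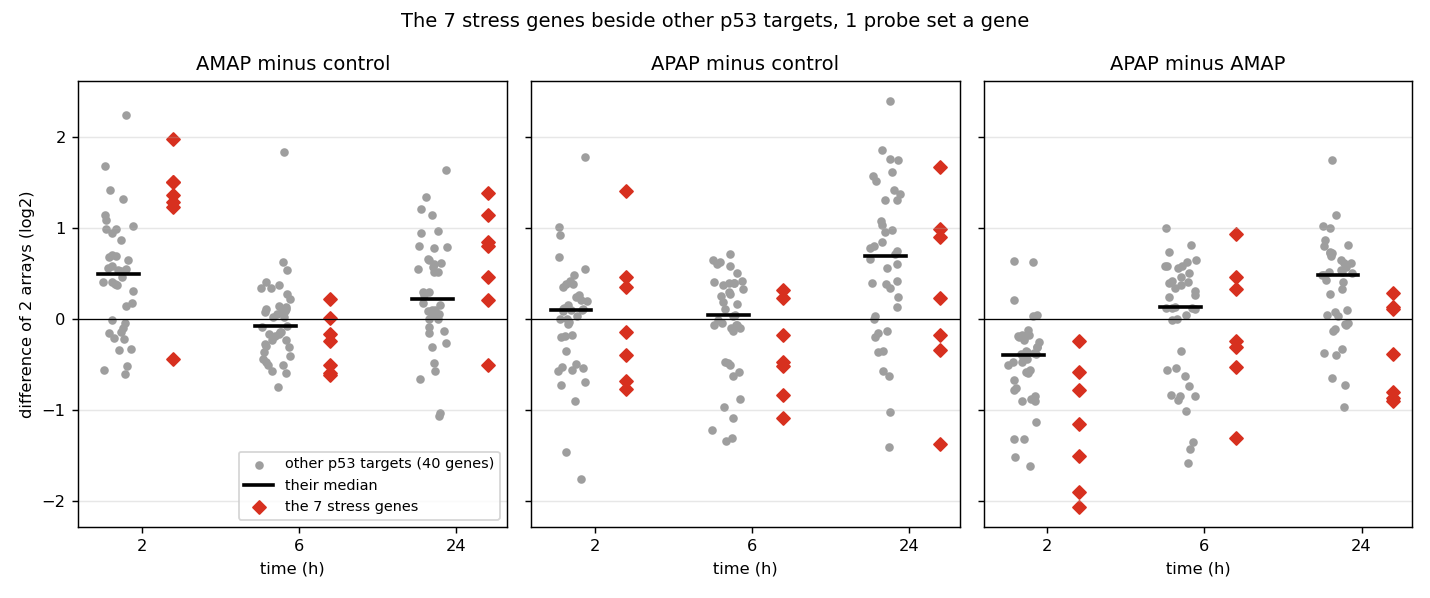
Difference of 2 arrays in log2 units (vertical axis) at 2, 6 and 24 h (horizontal axis) for the 40 other expressed p53 targets in grey, with their median as a bar, and for the 7 stress genes in red, 1 probe set a gene. At 2 h in AMAP 6 of the red points lie above 1, and the grey median is 0.49.

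Relatives and partners of the members mostly did not share their 2 h difference from control in AMAP. In the BTG and TOB family, Btg1 differed from control by -0.16 in AMAP at 2 h, Tob1 by 0.82 and Tob2 by 0.37. At 24 h, when Btg2 was high, Btg1 read -1.03 in AMAP and -1.41 in APAP, and Tob1 -1.15 and -1.43. The 9 expressed genes of this family and of the CCR4-NOT deadenylase were split at 2 h in AMAP, 4 higher and 5 lower.

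Among Polo-like kinases, Plk3, a stress-responsive kinase like Plk2, was above control in AMAP at 2 h by 1.35 log2 and at 24 h by 1.04, although its mean was below the median of probe sets. Plk3 is also on the list of p53 targets. Plk1, the mitotic kinase, differed the other way at 2 h, reading 7.41 in AMAP and 8.42 in control medium, and Plk4, which drives centriole copying, lay 0.22 above control. The 12 expressed genes of the GADD45 partner and stress-kinase list were split 8 higher and 4 lower at 2 h in AMAP. Their median was 0.18, beside -0.01 for all expressed genes. Cdkn1a was the single one that was 2-fold apart. Map3k4, the kinase that GADD45 proteins activate, lay at -0.09, the p38 kinase gene Mapk14 at -0.08, Pcna at 0.13 and Cdk1 at -0.64.

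Of the stress and immediate-early transcription factors, 7 of 9 expressed were higher than control in AMAP at 2 h, where 45.1% of all expressed genes were. Between the compounds all 9 were lower in APAP, where 46.6% of all expressed genes were higher. Atf3, which binds the cAMP response element, was above control by 3.93 log2, Jun by 2.33, Ddit3 by 1.71 and Egr1 by 1.47. At 24 h Atf3 was above control by 1.94 in AMAP and 2.10 in APAP. Foxo1 and Foxo3 lay at -0.27 and -0.05 in AMAP at 2 h.

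A fit over the 3 times looked for probe sets with a like treatment difference at each time. By limma, with Benjamini-Hochberg adjustment, 0 of 11313 were below the adjusted p threshold of 0.05 for each of the contrasts, which is 0% of them. At an unadjusted p under 0.05 there were 46 for AMAP against control, 869 for APAP against control and 440 for APAP against AMAP. As no probe set passed, this holds for the 40 other p53 targets too and says nothing about them in particular. For the members only a size and error are given. They come from the same model fitted to all 22626 probe sets, with no filter on low values. The largest mean difference was that of Trp53inp1 1416926_at between the compounds, -1.25 ± 0.30 log2 (SE), while 1416927_at gave -0.23 ± 0.51. For AMAP against control Btg2 gave 0.97 ± 0.45 and 1.10 ± 0.61, and Gadd45g 0.84 ± 0.43. For APAP against control Gadd45a gave -0.66 ± 0.34. A fit of this kind counts an effect at 1 or 2 times as error, and for Btg2 the AMAP differences at the 3 times had an SD of 0.83 and 1.52 log2 (n = 3 times).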

How the data were processed

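The deposited values are log2 RMA values, 1 per probe set and array. The submitters' processing notes name RMA and Affymetrix Expression Console. A version, or whether all arrays were normalized together, is not given in the sources used here. Its quantile step makes the arrays' distributions alike, which hides any difference in RNA per cell. Groups came from the sample titles. Of 22690 rows, 64 control probe sets were left out. Symbols are from GEO's platform annotation (1 symbol for 20380 probe sets, several for 691, none for 1555). Where 1 value stands for a gene, it is that of the probe set with the highest mean, for 12393 genes. The 6707 called expressed reached a mean of 5.66.

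The members and lists were chosen with earlier results of these data known. Named neighbours are the 3 nearest genes; named p53 targets are Cdkn1a, Mdm2 and the 3 highest and lowest at 2 h, with Pmaip1 and the partners named after their values were seen. In R 4.3.3, a linear model with treatment and, as a block, time was fitted to the 9 arrays with limma 3.58.1 (4 residual degrees of freedom, median residual SD 0.263 log2), with Benjamini-Hochberg adjustment, and was tested on simulated data. The 9 arrays limit the precision. Alternatives were a 1.5-fold threshold, no filter, cyclic loess, median centring, means of probe sets, other variance priors, no block and fewer times. The gene Trp53 is not analysed here.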

Additional observations from a re-analysis of the deposited data

Results flagged for a closer look

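Some members differed in opposite directions at different times, by at least 1.5-fold on both sides and with at least 1 of the arrays above the median of 5.66. Whether the times differ was not tested, since each value is a difference of 2 single arrays. In AMAP against control, Btg2 1448272_at read 1.73 at 2 h, -0.63 at 6 h and 2.21 at 24 h. Plk2 read 1.51, -0.59 and 0.85 at the same times, and Gadd45g 1.98, -0.61 and 1.14. The 24 h values rest on an array with a low dap probe set.

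In APAP against control, Btg2 1448272_at went from -0.74 at 2 h to 1.91 at 24 h. Trp53inp1 1416927_at went from -0.68 to 1.40, and Plk2 from -0.84 at 6 h to 0.98 at 24 h. The brighter Trp53inp1 probe set, 1416926_at, was below control at all 3 times, by -0.78, -1.09 and -0.18. The APAP arrays of 6 and 24 h are among those with a low dap probe set. In APAP against AMAP, Trp53inp1 1416927_at read -2.11 at 2 h, 0.66 at 6 h and 0.77 at 24 h. Gadd45g read 0.94 at 6 h and -0.91 at 24 h. The first probe set of Trp53inp1 stayed below AMAP at all 3 times.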

How the results depend on the processing

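The 2 h counts of members for AMAP against control and for APAP against AMAP were within 1.5 times under each alternative run. With a 1.5-fold threshold the members counted were 3 for AMAP against control at 6 h and 7 at 24 h, 5, 2 and 7 for APAP against control at 2, 6 and 24 h, and 3 and 4 for APAP against AMAP at 6 and 24 h. Other p53 targets then numbered 17, 4 and 17 for AMAP against control at the 3 times, 9, 11 and 26 for APAP against control, and 16, 17 and 17 between the compounds. The shares of all probe sets and genes at 1.5-fold were not counted. These numbers therefore show only how the counts depend on the threshold. Other alternatives for both counts stayed within 1.5 times. Reading Trp53inp1 from 1416927_at in place of 1416926_at, a choice made after seeing the data, turned APAP at 6 h to 0.37 against control and 0.66 against AMAP. Cyclic loess moved 5 of 117 member differences, all of Sesn1, by more than their residual SD, and median centring none. Averaging the probe sets of a gene moved 8 of 36, of Trp53inp1 and Sesn1. Reading a gene from another of its probe sets mattered most. It moved 23 of 54 differences, among them some of Btg2 and Gadd45b, and reversed 2, with a largest shift of 1.97 log2. The fit over 3 times called 0 probe sets in each setting, also without the 3 arrays with a low dap probe set, which leaves 1 residual degree of freedom. The fit is paired by time, which is its block, and without that block it also called 0. With 1 array per treatment and time there are no replicates to pair. Sesn1 and the dimmest Gadd45b probe set had means below 5.66, the median of probe sets.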

Other observations

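The genes listed as TP53INP partners or autophagy genes were mostly lower in APAP at 2 h, while the sestrin and GATOR genes were split. The first list holds Trp53inp2, Hipk2 and Prkcd beside autophagy genes. Of its 9 expressed genes, 7 were lower than control in APAP, where 45.3% of all expressed genes were higher. Also 7 were lower in APAP than in AMAP, where 46.6% were higher, and the median was -0.68 beside 0.00. These 9 genes had a median of -0.09 log2 in AMAP against control and -0.42 in APAP. In APAP Gabarapl1 lay at -0.93 and Sqstm1, the selective autophagy receptor, at -0.80. All 11 expressed sestrin and GATOR genes were higher than control in APAP at 24 h, where 60.4% of all expressed genes were, with a median of 0.37 beside 0.12. In AMAP 6 of 11 were, where 59.7% of all expressed genes were. Sesn2, the sestrin induced by several stresses, was above control by 0.39 in AMAP at 2 h and by 0.40 in APAP at 24 h.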
